A study of Mus musculus with 2 samples.

Results

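Serpins are a family of protease inhibitors that share 1 fold. They were examined here in lung cells from a sham-operated and a hepatic ischemia-reperfusion (HIR) library. Members were all features of the count table whose symbol begins with Serpin, which gave 40 of 32883 features in 9 clades, a to i. Clade a held 13 members and clade b held 16. Clades c, d, g and h held 1 member each, clades f and i held 2 each, and clade e held 3.

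Most serpins offer a reactive loop as bait to a serine or cysteine protease. Cleavage of the loop traps the protease in a covalent complex, so each inhibitor molecule is spent once. Clade b serpins mostly stay inside the cell and guard it against its own granule and lysosomal proteases, while most other clades are secreted into plasma or matrix and act in clotting, fibrinolysis, complement and tissue repair. Some members, such as the collagen chaperone Serpinh1 and pigment epithelium-derived factor Serpinf1, inhibit no protease.

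The sham group was lung tissue of wild type mice after sham surgery, and the HIR group was lung tissue of wild type mice taken 6 hours after hepatic ischemia-reperfusion, in which the liver's blood supply is stopped and then restored. Each group was 1 droplet single-cell library (10x Genomics), and the labels give no age, sex or strain and no number of animals. Minced lungs were digested by a mix of collagenase, DNase and elastase, and live cells were loaded after red cell lysis. The labels name mouse, but all 32883 features carry rat Ensembl identifiers, so symbols are those of the rat table.

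The sham and HIR libraries held 10719 and 9499 barcodes, with 59566745 and 50801778 unique molecular identifiers (UMIs, counts of distinct captured RNA molecules), a median of 3426 and 3094 per barcode. After filtering, 8572 and 7920 cells remained, and 24 barcodes occurred in both libraries. Cells fell into 31 clusters, computed without the Serpin features. Clusters were named from marker genes with the suffix -like, and those sharing a name were joined, giving 29 classes. Of these, 21 had at least 100 cells in both libraries and were compared. Of the 21, 4 stayed unnamed: cluster 6 (led by Notum, Krt76 and Wnt11), cluster 7 (Cyp1b1, Lum and Wnt11), cluster 10 (Actc1, Cox4i2 and Acta2, with smooth muscle and pericyte markers alike) and cluster 15 (Apln, Kdr and Ca4, with general capillary markers scoring as high). In the alveolar type 2 epithelium-like class its 9 markers summed to 268266 CPM (counts per 1000000 UMIs of the class) in sham and 253947 CPM in HIR. The class was named from these same markers, so the sum is not a separate check of the lung label.

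With no replicates, no test between the groups was possible, and the value of 1 library cannot be told apart from that of its treatment. Ratios are CPM in HIR over CPM in sham, with an exact 95% interval that covers counting error only. A member was measured in a class where it had at least 50 UMIs over both libraries. It was called higher or lower where the ratio was at least 2-fold and the interval left out 1.

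Of the 40 members, 24 had UMIs and 16 were at 0 in both libraries, where 3 counts of a library correspond to 0.0504 CPM in sham and 0.0591 CPM in HIR. Clade a was mostly silent: 10 of its 13 members were at 0, as were 6 of the 16 in clade b. A serpin listed under another symbol would be missed by the rule, as LOC299282 may be, a leading gene of clusters 6 and 7 whose identity was not settled. All other clades had UMIs for each member. Serpin RNA came to 49885 UMIs in the sham and 60535 in the HIR barcodes, or 871 and 1259 CPM of the kept cells. The single largest difference between the libraries was in Serpinb1a, with 4274 and 30761 UMIs. Serpinh1 went the other way, with 16767 and 6337 UMIs.

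Over the 21 classes, 89 pairs of a member and a class were measured, from 14 members. In 8 pairs (8.99%) the member was called higher in HIR, against 2.47% of all 111939 measured feature-class pairs. In 10 pairs (11.2%) it was called lower, against 2.77%. Ratios were over 1 in 47 of the 89. Of the 8 higher pairs, 3 came from Serpinb1a and 1 each from Serpinb9, Serpinb10 and Serping1, and the 10 lower pairs came from Serpinb9 and Serpinh1 alone. Pairs of 1 member share a gene and all pairs share the same 2 libraries, so the counts are descriptions.

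Each of the abundant members had its own distribution over the lung. Serpinb1a and Serpinb10 were mainly myeloid, Serpinb6b was mainly lymphoid, and Serpina1 was highest in the general capillary class. Serpinf1 marked the adventitial fibroblasts and Serping1 the fibroblasts in general. Serpinh1 and Serpinb6a were spread mainly over the classes outside the blood lineages, at differing levels. Of the 12 members with at least 50 CPM in a compared class, 8 had their highest class in common between the libraries. Serpinb1a, Serpinb8 and Serpinb9 were among the other 4.

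**Figure D1:**
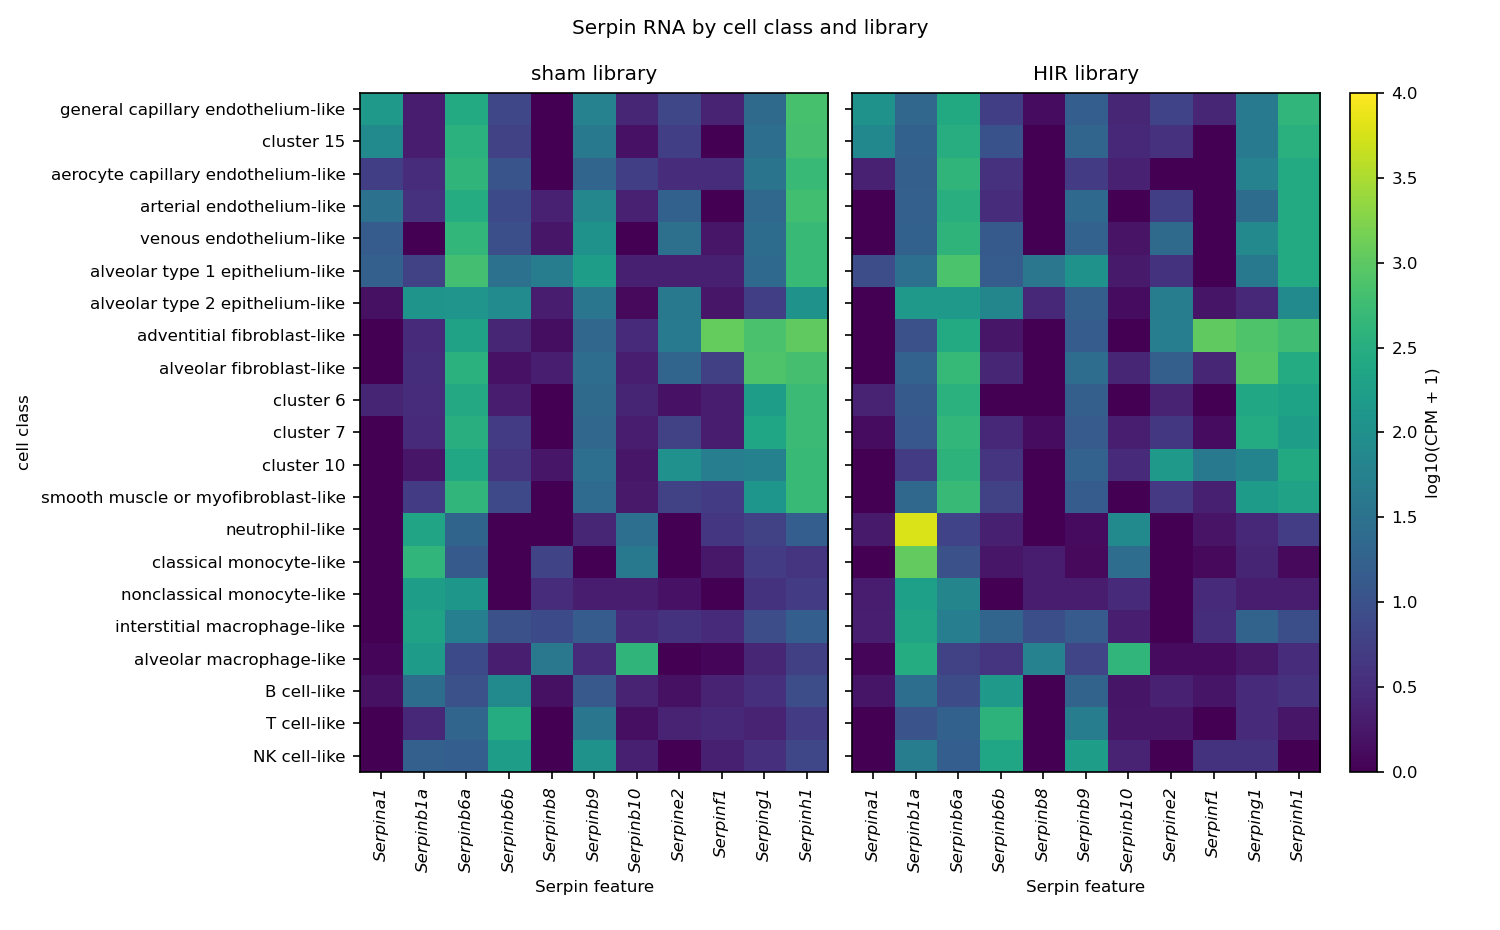
Level of 11 abundant Serpin members (columns) in the 21 compared cell classes (rows), as log10(CPM + 1), in the sham (left) and HIR (right) library. Serpinb1a in neutrophil-like cells goes from 213 CPM in sham to 6023 CPM in HIR, and Serpinf1 stands at 1141 and 1066 CPM in the adventitial fibroblast-like class.

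Serpinb1a, known as monocyte and neutrophil elastase inhibitor, blocks the granule proteases elastase, cathepsin G and proteinase 3 inside the neutrophils that carry them. In neutrophil-like cells it had 129 UMIs in 360 sham cells and 19207 UMIs in 1276 HIR cells. Its level was 213 CPM in sham and 6023 CPM in HIR, a ratio of 28.3 (95% counting interval 23.8 to 33.9). The typical sham neutrophil-like cell had no Serpinb1a molecule (median 0, mean 0.358, most in 1 cell 12), and the typical HIR cell had 7 (mean 15.1, most 144). The share of cells with at least 1 UMI was 19.4% in sham and 85.2% in HIR, where the median depths of the class were 1328 and 2076 UMIs. Thinned to 1000 UMIs per cell, which left out 95 and 138 shallower cells, the shares were 17.0% (exact interval 12.7 to 22.1) and 83.5% (81.2 to 85.6). In T cell-like cells, which should lack the gene, the thinned shares were 0.281% and 1.23%, at median depths of 5402 and 5337 UMIs.

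The neutrophil-like class joined 2 clusters whose shares differed between the libraries. Cluster 8, led by the interferon-induced genes Slfn4, Ifit3 and Isg15, held 314 sham and 621 HIR cells, and cluster 26 held 46 and 655. The difference appeared in each. In cluster 8 Serpinb1a stood at 151 CPM in sham and 3198 CPM in HIR (ratio 21.2, 16.6 to 27.5), and in cluster 26 at 372 and 7341 CPM (ratio 19.8, 15.4 to 25.7). Within cluster 26 the median depths were close, at 3027 and 3003 UMIs per cell. Granule genes moved both ways in cluster 26. Ngp stood at 5434 CPM in sham and 324 CPM in HIR, Camp at 11364 and 2670 CPM, and Mmp8 at 4945 and 3194 CPM. Elane, neutrophil elastase, stood at 17.7 CPM in sham, on 3 UMIs, and 62.6 CPM in HIR. In cluster 8 Camp stood at 423 and 387 CPM, with an interval that included 1, and Mmp8 at 684 and 937 CPM. The part of neutrophil maturity in the Serpinb1a difference was not tested. Over all measured features of the class the median log2 ratio was -0.30, and dividing it out raises the Serpinb1a value from 4.82 to 5.12 on the log2 scale. With barcodes of high doublet score kept it was 3.79.

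Other phagocytes held Serpinb1a in both libraries. In classical monocyte-like cells it was 421 CPM in sham and 1104 CPM in HIR, a ratio of 2.62 (2.40 to 2.88), and this was the highest class in sham. The thinned share of these cells with a UMI was 28.6% in sham and 54.5% in HIR. The sum of the 8 listed neutrophil markers moved with this result. It was 1823 CPM in the sham and 27307 CPM in the HIR monocyte-like cells, with 0 and 1 markers at 0. Most of both sums came from S100a8 (1192 and 16744 CPM) and S100a9 (547 and 10261 CPM). The part of these markers in the Serpinb1a result was not tested. In these cells 35.3 Serpinb1a UMIs were counted per 100 UMIs of S100a8 in sham and 6.59 in HIR. Neutrophil-like cells had 0.227 per 100 in sham and 3.46 in HIR. Alveolar macrophage-like cells had 156 CPM in sham and 295 CPM in HIR, a ratio of 1.89 (1.75 to 2.04) that stayed under 2-fold. There the neutrophil markers summed to 47.9 and 311 CPM, mostly from S100a8 (18.6 and 157 CPM) and S100a9 (18.6 and 134 CPM). Serpinb1a UMIs per 100 of S100a8 were 842 in sham and 188 in HIR. Interstitial macrophage-like cells (198 and 216 CPM) and nonclassical monocyte-like cells (172 and 181 CPM) had intervals that included 1. Alveolar type 2 epithelium-like cells held 118 CPM in sham and 145 CPM in HIR, a ratio of 1.22 (1.07 to 1.40).

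Elsewhere Serpinb1a was scarce. In general capillary endothelium-like cells 4 UMIs were counted in sham and 59 in HIR (1.10 and 20.2 CPM), a ratio of 18.4 (6.83 to 69.9) that passed the call. That level was under 5% of the highest class, and the same cells held 23.3 and 259 CPM of the neutrophil gene S100a8. There 4.71 Serpinb1a UMIs were counted per 100 of S100a8 in sham and 7.82 in HIR. Under the 5% limit the difference is not read further, and the source of these UMIs was not tested.

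**Figure D2:**
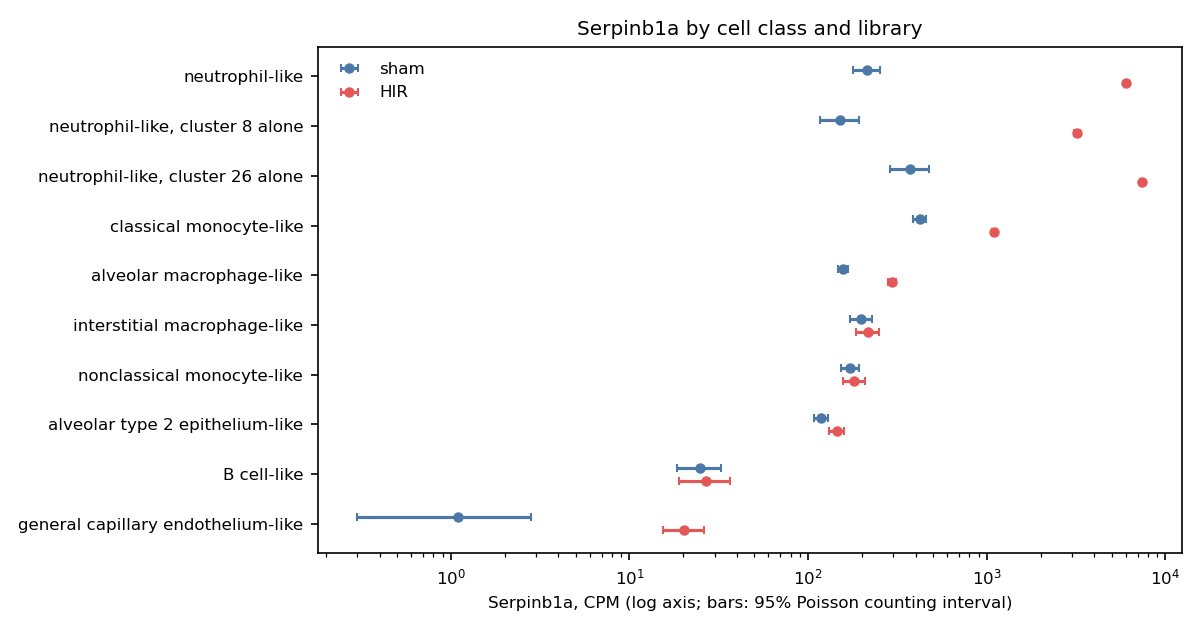
Serpinb1a level in CPM (log axis) in 8 cell classes and, for the neutrophil-like class, in each of its 2 clusters alone. Points are 1 library each (sham blue, HIR red), and bars are 95% Poisson counting intervals. The libraries lie far apart in both neutrophil clusters and close together in nonclassical monocyte-like and interstitial macrophage-like cells.

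Serpinb10, an intracellular serpin of the myeloid lineage, was highest in alveolar macrophage-like cells. There it was 408 CPM in sham and 424 CPM in HIR, a ratio of 1.04 (0.984 to 1.10). The next class in sham was the classical monocyte-like class, 10.1-fold lower (7.69 to 13.7), and in HIR the neutrophil-like class, 5.22-fold lower (4.595 to 5.957). Interstitial macrophage-like cells hardly held it, with thinned shares of 0.719% and 0% against 31.1% and 30.8% in alveolar macrophage-like cells. Neutrophil-like cells had 17 UMIs in sham and 259 in HIR, or 28.0 and 81.2 CPM, and the ratio of 2.90 (1.78 to 5.05) passed the call. Within cluster 26, which held 245 of those 259 UMIs, the levels were 88.5 and 113 CPM and the interval included 1 (ratio 1.27, 0.757 to 2.31). With barcodes of high doublet score kept, the log2 ratio of the class was 0.70 instead of 1.5. The classical monocyte-like class went from 40.3 CPM in sham to 26.2 CPM in HIR, a ratio of 0.650 (0.460 to 0.929).

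Both measured members of the neutrophil-like class, Serpinb1a and Serpinb10, were thus called higher, where 5.68% of all 3536 measured features were. Of the 30 listed proteases, cofactors and clearance receptors of serpins, 7 were measured in this class. Elane, neutrophil elastase and the main target of Serpinb1a, was called higher at 18.1 CPM (11 UMIs) in sham and 69.6 CPM (222 UMIs) in HIR, a ratio of 3.84 (2.10 to 7.80). Within cluster 8, a split chosen after seeing the data, its ratio was 4.63 (2.25 to 11.1), and within cluster 26 it was 3.53 (1.18 to 17.3) on 3 sham UMIs. None of the 7 was called lower, against 12.0% of all features measured there. Their median log2 ratio was 0.05, beside -0.30 for all features. Among 14 listed inhibitors of other families, 6 were measured. Slpi, a secreted elastase inhibitor, was called higher at 2316 and 4900 CPM (ratio 2.12), and Timp2, an inhibitor of matrix metalloproteinases, lower at 308 and 144 CPM (ratio 0.466). Within clusters 8 and 26 the ratios were 2.30 and 3.16 for Slpi and 0.537 and 0.428 for Timp2, of which 0.537 falls short of 2-fold. In the classical monocyte-like class Serpinb1a was the 1 of 3 measured members called higher, where 5.43% of all features were. None of the 3 was called lower, against 6.35% of all features. Slpi went the same way as Serpinb1a there, at 557 and 2695 CPM.

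Serpinb9 inhibits granzyme B and shields cytotoxic lymphocytes and their bystanders from it. It was lower in HIR in 4 endothelial classes and in type 2 cells. In venous endothelium-like cells 147 UMIs were counted in sham and 26 in HIR, or 111 and 17.0 CPM, a ratio of 0.153 (0.0968 to 0.233). The share of these cells with a UMI was 48.2% in sham and 10.3% in HIR, and after thinning 13.04% (8.26 to 19.2) and 0.966% (0.117 to 3.45). Neutrophil-like cells, which hardly carry the gene, had thinned shares of 0% and 0.0879%. The thinned HIR value of the venous cells was 2 cells of 207. The general capillary class had 59.0 CPM in sham and 14.4 CPM in HIR, a ratio of 0.244 (0.171 to 0.341). Arterial endothelium-like cells had 70.8 and 22.4 CPM (0.316, 0.143 to 0.628), and cluster 15 had 39.9 and 19.3 CPM (0.484, 0.283 to 0.797). Alveolar type 2 epithelium-like cells had 36.5 and 14.98 CPM (0.411, 0.285 to 0.581).

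In lymphocytes the ratios were over 1. In NK cell-like cells, the highest class in HIR, Serpinb9 was 111 CPM in sham and 167 CPM in HIR, a ratio of 1.502 (1.13 to 2.001). The T cell-like class had 36.4 and 47.6 CPM and an interval that included 1 (ratio 1.31, 0.924 to 1.84). The sham library was highest in alveolar type 1 epithelium-like cells, with 167 CPM against 109 CPM in HIR (0.653, 0.504 to 0.844). That class joined clusters 1 and 3, which held 87.6% and 12.4% of its sham cells but 78.1% and 21.9% of its HIR cells. In cluster 1 alone the levels were 184 and 167 CPM, and the interval included 1 (0.905, 0.688 to 1.19). In cluster 3 alone they were 84.5 and 33.4 CPM on 12 and 15 UMIs, and the interval left out 1 (0.395, 0.173 to 0.925). Alveolar macrophage-like cells were called higher, as 0.687% of their measured features were, but at 2.10 and 5.83 CPM they stood under 5% of the highest class. None of their 5 measured members was called lower, against 0.724% of all features. Serpinb9 lies among close paralogs, and how reads shared between copies were counted is not given in the sources used here.

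Serpinb6a, an inhibitor of cathepsin G and trypsin-like proteases found in most tissues, was the broadest clade b member. It was measured in 18 of 21 classes and called in none. Its highest class in both libraries was alveolar type 1 epithelium-like, at 648 CPM in sham and 742 CPM in HIR (1.14, 1.02 to 1.28). Endothelial and stromal classes lay between 203 and 505 CPM over both libraries, whereas B, T and NK cell-like, neutrophil-like and classical monocyte-like cells stood far lower. Stromal ratios were over 1, and the highest of them was in cluster 10, at 250 and 379 CPM (1.52, 1.31 to 1.77). In nonclassical monocyte-like cells the level was 129 CPM in sham and 65.0 CPM in HIR, a ratio of 0.502 (0.376 to 0.663) that came just short of 2-fold.

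Serpinb6b, a close copy of Serpinb6a, had another distribution, although reads that fit both copies may have been lost or shared. T cell-like cells were highest, with 299 CPM in sham and 387 CPM in HIR (1.30, 1.15 to 1.46). NK cell-like cells followed with 177 and 226 CPM (1.28, 1.01 to 1.62). B cell-like cells had 79.4 and 145 CPM (1.83, 1.48 to 2.26), and their share with a UMI was 15.2% and 27.9%, or 7.96% and 12.6% after thinning. All 3 lymphocyte ratios were over 1 and none reached 2-fold, while type 2 cells had 82.9 and 68.6 CPM (0.828, 0.690 to 0.991).

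Serpinb8, an inhibitor of furin-like and trypsin-like proteases, had at least 50 UMIs in 2 of the 21 compared classes. Alveolar macrophage-like cells had 38.8 CPM in sham and 59.4 CPM in HIR (1.53, 1.30 to 1.80), and alveolar type 1 epithelium-like cells had 47.9 and 37.6 CPM (0.786, 0.491 to 1.26). The order of these classes was not resolved in sham, where type 1 cells stood 1.23-fold above (0.857 to 1.73). In cluster 1 alone the type 1 levels were 56.5 and 59.6 CPM.

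Among the secreted inhibitors, Serping1 encodes C1 inhibitor, which blocks C1r and C1s of the complement cascade and plasma kallikrein. Its highest classes were alveolar fibroblast-like, with 789 CPM in sham and 851 CPM in HIR (1.08, 0.971 to 1.20), and adventitial fibroblast-like, with 706 and 789 CPM (1.12, 1.03 to 1.21). Ratios were over 1 in 11 of 11 measured classes, 1 of which, alveolar type 1 epithelium-like, was split within. Its cluster 1 alone went from 17 UMIs in sham to 6 in HIR (0.404, 0.131 to 1.08), and its smaller cluster 3 from 1 to 36. The venous and general capillary endothelial classes started low and showed larger ratios than these fibroblast classes. Venous endothelium-like cells had 33 UMIs in sham and 117 in HIR, or 25.0 and 76.6 CPM, and the ratio of 3.07 (2.07 to 4.66) was the 1 of 11 called. The share of venous cells with a UMI was 14.6% and 36.6%, or 2.48% (0.681 to 6.24) and 6.28% (3.39 to 10.5) after thinning, where the intervals overlapped. General capillary cells had 23.1 CPM in sham and 44.9 CPM in HIR (1.95, 1.47 to 2.59), with thinned shares of 1.87% and 5.51%. In cluster 6 the levels were 165 and 250 CPM (1.51, 1.25 to 1.83). C1s, a protease that Serping1 blocks, was called higher in cluster 6, at 27.6 and 69.8 CPM, as were 2.18% of all features.

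Among the listed proteases that serpins inhibit, Plat, tissue plasminogen activator, was called higher in 3 classes. In cluster 15 it was 217 CPM in sham and 520 CPM in HIR (2.40, 2.10 to 2.73), in aerocyte capillary endothelium-like cells 366 and 816 CPM (2.23, 1.94 to 2.56), and in alveolar type 1 epithelium-like cells 30.7 and 117 CPM (3.81, 2.46 to 6.11). Endothelial markers moved with the type 1 value: the 8 general capillary markers summed to 1528 and 2416 CPM there, with 0 at 0, and the 6 venous ones to 276 and 617 CPM, with 2 and 1 at 0. Cluster 3, 12.4% of the class in sham and 21.9% in HIR, had 134 and 236 CPM of Plat (1.76, 1.08 to 3.05), and cluster 1 had 8.92 and 25.5 CPM on 6 and 15 UMIs (2.86, 1.05 to 9.01). Their part in it was not tested. The shares of all measured features called higher were 1.30%, 2.06% and 4.79% in these classes. In the last 2 no member was called in either direction, and 1.5% and 1.34% of all features were called lower.

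Serpine2, protease nexin 1, inhibits thrombin and urokinase at the cell surface. Its highest class was cluster 10, with 105 CPM in sham and 144 CPM in HIR (1.37, 1.07 to 1.74). Adventitial fibroblast-like cells had 41.3 and 50.1 CPM (1.21, 0.875 to 1.67) and type 2 cells 40.1 and 47.0 CPM (1.17, 0.926 to 1.49). Venous endothelium-like cells had 28.7 and 22.9 CPM, with an interval that also included 1. No class was called.

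Serpinf1, pigment epithelium-derived factor, is a secreted protein that restrains vessel growth and does not inhibit proteases. It was nearly a marker of the adventitial fibroblast-like class, with 1141 CPM in sham and 1066 CPM in HIR (0.934, 0.875 to 0.997). The next class, cluster 10, was 22.9-fold lower in sham (17.9 to 29.8) and 25.9-fold lower in HIR (19.0 to 36.3). UMIs were found in 81.0% of sham and 73.6% of HIR adventitial cells, and after thinning in 52.4% and 42.7%. In alveolar macrophage-like cells the thinned share was 0% in both libraries, at median depths of 18032 and 19888 UMIs before thinning.

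Serpina1 is alpha-1 antitrypsin, the circulating elastase inhibitor made by the liver, whose inherited lack leads to emphysema. Here its RNA was found mainly in general capillary cells and cluster 15. General capillary endothelium-like cells had 501 UMIs in sham and 317 in HIR, or 138 and 109 CPM (0.790, 0.685 to 0.912). Cluster 15 had 76.9 and 72.6 CPM (0.944, 0.707 to 1.25). The share of general capillary cells with a UMI was 22.7% and 16.3%, and after thinning 10.0% (8.37 to 11.9) and 8.74% (7.10 to 10.6). Aerocyte capillary endothelium-like cells hardly held it, with thinned shares of 0% in sham and 0.345% in HIR. No UMI was left in thinned alveolar macrophage-like or type 2 cells of either library. Arterial endothelium-like cells had 23 UMIs in sham and 0 in HIR, a class total too low to be measured. The 6 listed hepatocyte markers summed to 1.92 CPM in sham and 2.40 CPM in HIR in the general capillary cells, and albumin (Alb) was at 0. Serpina11 sat in the same cells at 13.7 and 10.6 CPM (50 and 31 UMIs), with an interval that included 1.

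Serpinh1 encodes HSP47, which binds procollagen in the endoplasmic reticulum and escorts it to the Golgi. It was lower in HIR in 13 of 13 measured classes, and the upper bound of every interval lay under 1. In adventitial fibroblast-like cells, its highest class, it was 1038 CPM in sham and 600 CPM in HIR (0.578, 0.533 to 0.626). UMIs were found in 96.2% of these cells in sham and 77.4% in HIR, and after thinning in 58.6% (53.3 to 63.8) and 41.0% (34.6 to 47.6).

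The call of at least 2-fold was met in 5 of the 13 classes. Cluster 7 had the lowest ratio, with 533 CPM in sham and 174 CPM in HIR (0.327, 0.293 to 0.365), and its thinned share of cells was 44.7% and 16.2%. The smooth muscle or myofibroblast-like class followed at 515 and 198 CPM (0.384, 0.321 to 0.458). Cluster 6 had 536 and 211 CPM (0.394, 0.329 to 0.467). Alveolar fibroblast-like cells had 650 and 283 CPM (0.435, 0.367 to 0.513), and arterial endothelium-like cells 614 and 279 CPM (0.455, 0.370 to 0.556). The other 8 lay between 0.519 in cluster 15 and 0.716 in alveolar type 2 epithelium-like cells. Among them was the alveolar type 1 epithelium-like class. Its cluster 1 alone passed 2-fold (0.486, 0.395 to 0.597), and its cluster 3 did not (0.598, 0.456 to 0.790). General capillary cells, with the most UMIs, had 682 and 429 CPM (0.629, 0.587 to 0.674). Blood lineage cells had little Serpinh1 in either library, with thinned shares in neutrophil-like cells of 1.13% and 0.351%.

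**Figure D3:**
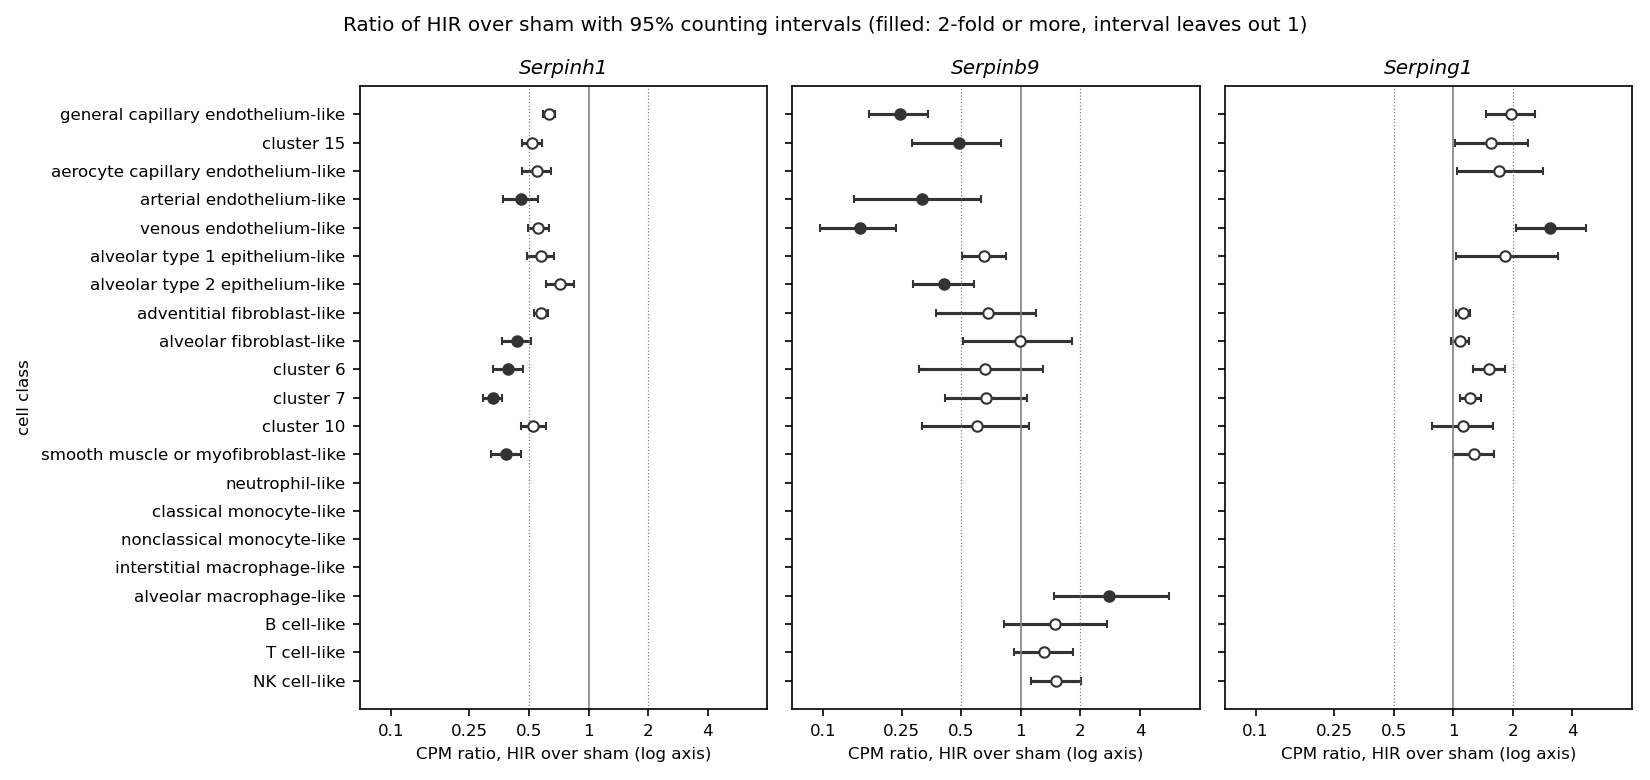
Ratio of HIR over sham CPM (log axis) for Serpinh1, Serpinb9 and Serping1 in each class where the gene had at least 50 UMIs, with exact 95% counting intervals. Filled points are called, the solid line is a ratio of 1, and dotted lines are 2-fold. All 13 Serpinh1 points lie left of 1 and all 11 Serping1 points right of it, with the type 1 point of Serping1 reversed in cluster 1 alone (0.404), while Serpinb9 is left in endothelium and right in NK cell-like cells.

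The partners of Serpinh1 in collagen folding were 18 listed genes of which 16 were in the table. In cluster 7 all 16 were measured, 3 had ratios over 1, and the median log2 ratio was -0.38 beside 0.05 for all features. There Col3a1, a fibrillar collagen chain, was the 1 of 16 called lower (2.04% of all features), at 12967 CPM in sham and 5399 CPM in HIR (0.416). In adventitial fibroblast-like cells 15 were measured with a median of -0.49 (all features -0.02), and P4ha1, which hydroxylates procollagen prolines, was called lower at 120 and 53.1 CPM (0.444), as 3.57% of all features measured there were. Alveolar fibroblast-like cells had a median of -0.38 over 14 genes, with none called (5.31% of all features higher, 4.55% lower). The median in the smooth muscle or myofibroblast-like class was -0.30 over 14, again with none called (2.35% and 1.57%). In general capillary cells the median was -0.13 over 14, and the basement membrane chain Col4a2 was the 1 called higher (1.82% of all features), at 68.9 and 140 CPM. With at most 1 gene called in each of these classes, nothing is read from the counts.

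Read by class, endothelial cells had calls in both directions. In venous endothelium-like cells 6 members were measured, of which Serping1 was called higher (2.43% of all features) and Serpinb9 lower (2.83%). Other inhibitors listed there included Cst3, cystatin C, called higher at 1645 CPM in sham and 6994 CPM in HIR, and Wfdc1 and Tfpi, the tissue factor pathway inhibitor, called lower at 907 and 103 CPM and at 306 and 96.9 CPM. In arterial endothelium-like cells Serpinb9 and Serpinh1, 2 of 3 members measured, were called lower (2.77% of all features), and none was called higher (1.85%). In the general capillary class 7 were measured. Serpinb9 was called lower (2.03% of all features), and Serpinb1a was called higher (1.82%) at the low level given above. In cluster 15 Serpinb9 was the 1 of 5 called lower, against 2.02% of all features. The HIR venous cells also carried more neutrophil marker RNA, 1082 CPM over 8 markers against 63.5 CPM in sham, with 3 at 0 in sham and 0 in HIR. Most of the HIR sum came from S100a8 (12.1 CPM in sham, 518 CPM in HIR) and S100a9 (15.1 and 516 CPM). Neutrophil-like cells themselves held 1.65 CPM of Serpinb9 in sham and 0.314 CPM in HIR, and the part of this RNA in the venous values was not tested.

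Among fibroblast and mural classes, Serpinh1 was the 1 member called lower in alveolar fibroblast-like cells (4.55% of all features), smooth muscle or myofibroblast-like cells (1.57%), cluster 6 (2.48%) and cluster 7 (2.04%). In cluster 10 none of 6 members was called, against 1.68% of all features higher and 2.33% lower. Alveolar type 2 epithelium-like cells had 1 of 7 members called lower, Serpinb9, against 2.09% of all features. Ctsl, the lysosomal protease cathepsin L, was called higher in 5 of these stromal classes, for example at 918 CPM in sham and 2436 CPM in HIR in cluster 7 and at 674 and 1602 CPM in alveolar fibroblast-like cells. Features called higher made up 2.51% in cluster 7, 5.31% in alveolar fibroblast-like, 4.06% in adventitial fibroblast-like and 2.35% in smooth muscle or myofibroblast-like cells. No member was called in 5 classes of lymphocytes and mononuclear cells. That covered 3 measured members in T cell-like cells (0.669% of all features higher, 0.745% lower) and 3 in B cell-like cells (0.681% and 0.842%). It also covered 2 members each in NK cell-like (1.47% and 2.88%), nonclassical monocyte-like (4.16% and 6.63%) and interstitial macrophage-like cells (1.11% and 1.02%).

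**Figure D4:**
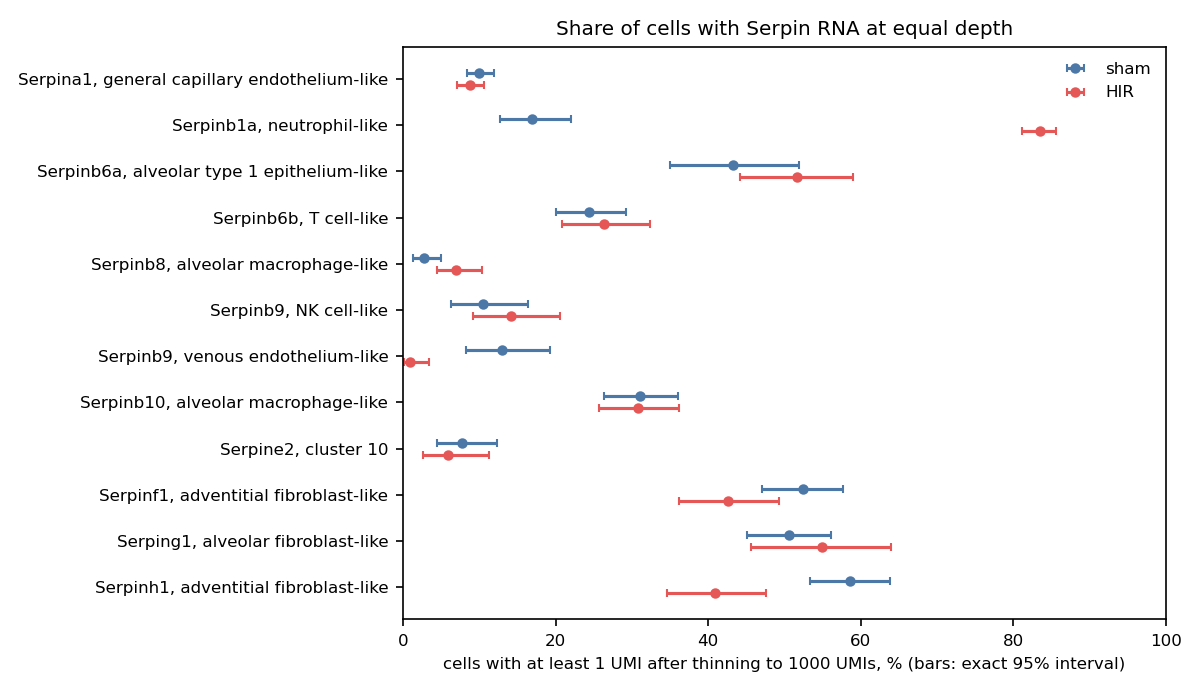
Share of cells with at least 1 UMI of a member after each cell was thinned to 1000 UMIs, with exact 95% intervals, for 12 pairs of a member and a class. Sham is blue and HIR red. The intervals are apart for Serpinb1a (17.0% and 83.5%), Serpinb9 in venous cells (13.04% and 0.966%) and Serpinh1 (58.6% and 41.0%), and overlap for the other 9 pairs.

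The other 12 members with UMIs had between 1 and 381 in both libraries together. Serpini1 (neuroserpin), with 381, was spread thinly, with at most 28 UMIs in a compared class and library. Serpinc1, which encodes antithrombin, had 190 UMIs, of which B cell-like cells held 17 in sham and 18 in HIR. Serpind1, heparin cofactor II, had 85 UMIs over all barcodes, of which the kept cells held 37 in sham and 30 in HIR. Most of these were in alveolar type 2 epithelium-like cells, at 34 UMIs in sham and 25 in HIR (8.67 and 8.71 CPM, ratio 1.004, 0.574 to 1.73). Serpinb2, an inducible inhibitor of urokinase, had 0 UMIs in sham and 5 in HIR.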

How the data were processed

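The sham and HIR lung libraries were analysed from the count matrices that the authors deposited, which hold unnormalized UMI counts per feature and cell barcode. Per the submitters' processing notes, Cell Ranger 6.0, STAR, Seurat 4.0 and the mouse build mm10 were used, whereas per the file headers the matrices came from cellranger 5.0.0. How reads shared by near-identical Serpin copies were counted is not given in the sources used here, and no sequence was printed because the features are rat and the reference is mouse.

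Cells needed 200 genes and no more than 20% mitochondrial UMIs. Scrublet in scanpy 1.11.5 scored doublets, and the top scores were removed at 0.8% per 1000 barcodes. Leiden clustering (igraph 0.11.9, resolution 1.0, 15 neighbours, 30 components, 2000 variable genes without Serpin features) used both libraries together. A name needed 3 markers over 2-fold, a mean log2 fold of 0.8 and 1 marker among the 10 leading genes. This naming rule was set after the data were seen. UMIs were summed per class and divided by its total. Intervals are exact Poisson for levels, conditional binomial for ratios (SciPy 1.17.1) and Clopper-Pearson for shares, and cover counting error only. The interval calculation was tested on simulated data.

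Members were named with values where a class held at least 50 CPM in either library and 50 UMIs over both, and a difference was read only at 5% or more of the highest class. The members, gene lists and rules were chosen with earlier results of these data known. The values of 1 named member are not reported here, although the counts over members include it. Alternatives were other cell filters, doublets kept, other clusterings, per-cell means, another scaling, other UMI minimums and a larger pseudocount.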

Additional observations from a re-analysis of the deposited data

Results flagged for a closer look

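For 3 members, classes stood on opposite sides of 1 by at least 1.5-fold with both counting intervals leaving out 1. With 1 library per group, the difference between the classes was not tested in any of the 3. Serpinb10 had a ratio of HIR over sham of 2.90 in neutrophil-like cells and 0.650 in classical monocyte-like cells. Within neutrophil-like clusters 8 and 26 alone it was 3.01 (0.692 to 27.3) and 1.27 (0.757 to 2.31), and neither interval left out 1. Serpinb6a had a ratio of 1.52 in cluster 10 and 0.502 in nonclassical monocyte-like cells. Serpinb9 had a ratio of 1.502 in NK cell-like cells and 0.153 in venous endothelium-like cells.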

How the results depend on the processing

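No paired analysis was possible because each group held 1 library and the result came from no test. Of the 89 measured pairs of a member and a class, 8 were called higher and 10 lower. The count called higher was 13 of 99 with doublets kept, 15 of 127 with a minimum of 20 UMIs, and 5 of 64 with a minimum of 100 UMIs. The count called lower was 6 of 75 with each library clustered alone and 17 of 127 with a minimum of 20 UMIs. The share of all features called under these other settings is not given here, so nothing is read from these counts. Between 8 and 12 of the 12 named members kept their highest class in both libraries under the alternatives run. Not every ratio in the report was rerun. Of those that were and are described here, Serpinb8 in alveolar type 1 epithelium-like cells, whose interval included 1, changed sign. Serping1 in the same class did so in cluster 1 alone, with a ratio of 0.404. The Serpinb1a log2 ratio in neutrophil-like cells, 4.82, was 3.79 with doublets kept, and that of Serpinb10, 1.5, was 0.70 with doublets kept and 0.35 in cluster 26 alone. That single-cluster setting was chosen after seeing the data. The Serpinb9 log2 ratio in alveolar type 1 epithelium-like cells, -0.61, was -0.03 with each library clustered alone. The causes of these shifts were not tested. Members with fewer than 50 UMIs in a class, among them all 12 unnamed ones outside 2 classes, were counted too thinly to be compared.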

Other observations

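Of the 8 classes with under 100 cells in a library, which entered no comparison, several held Serpin RNA at high levels. Lymphatic endothelium-like cells (41 in sham and 12 in HIR) had 307 CPM of Serpine2 in sham and 214 CPM in HIR, and 855 and 330 CPM of Serpinh1. Mesothelium-like cells (85 and 113) had 128 CPM of Serpinb1a in sham and 570 CPM in HIR, but 2 sham cells carried all 17 of the sham UMIs. Cycling cell-like cells (51 and 45) had 381 CPM of Serpinb10 in sham and 305 CPM in HIR, next to 408 and 424 CPM in alveolar macrophage-like cells.

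2 further gene lists, neither made of Serpin members, were counted in the same classes. Of 17 acute phase and STAT3 target genes, 16 were in the table. In venous endothelium-like cells 5 of 10 measured were called higher (2.43% of all features) and 0 lower (2.83%). Their median log2 ratio was 0.82 beside -0.05 for all features. In alveolar type 2 epithelium-like cells 0 of 9 were higher (1.31% of all features) and 1 lower (2.09%), with a median of 0.29. In nonclassical monocyte-like cells 1 of 9 was higher (4.16%) and 1 lower (6.63%), and the median was -0.08 beside -0.06. Of 14 glucocorticoid-induced genes, 10 of 13 measured in adventitial fibroblast-like cells were called higher (4.06% of all features) and 0 lower (3.57%). Their median was 1.49 beside -0.02. In alveolar type 2 epithelium-like cells 0 of 11 were higher (1.31% of all features) and 2 lower (2.09%), with a median of 0.31. In neutrophil-like cells 2 of 8 were higher (5.68%) and 1 lower (12.0%), and the median was -0.22 beside -0.30. Serping1 was also called higher in the venous cells, but a link between it and either list was not tested.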
